A study of Homo sapiens with 6 samples.

Results

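The 50 genes described here encode the proteins that fold, repair and remove other proteins, together with the regulators that switch them on under stress. They were chosen by name, as the rows of the deposited gene table whose symbol equals 1 of 50 listed symbols, and all 50 symbols were found among its 46427 rows. By compartment, 27 belong to the endoplasmic reticulum (ER) and its unfolded protein response (UPR), 13 to the cytosolic heat shock system, 3 to mitochondria and 7 to the CCT chaperonin. All 50 were among the 18366 genes left by the filter on low counts. RNA sequencing was performed on HCT116 cells, a human colorectal carcinoma line, in 3 libraries of parental cells with wild type *ZKSCAN3* (*ZK3*-WT) and 3 libraries of *ZKSCAN3* knockout cells (*ZK3*-KO), numbered by replicate. *ZKSCAN3* encodes a zinc finger transcription factor, and in *ZK3*-KO cells CRISPR/Cas9 was aimed at the start codon in its first exon. Both groups were grown in the same serum-containing medium, and no heat, drug or other stress agent is named for either group. The *ZK3*-KO cells went through puromycin selection and single-cell isolation, and the sources used here do not say whether the 3 libraries represent 1 clone.

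Proteins that enter the ER are folded by chaperones such as BiP, the product of *HSPA5*, and by protein disulfide isomerases, which form disulfide bonds. When unfolded proteins accumulate there, 3 sensors in the ER membrane (IRE1, PERK and ATF6, encoded by *ERN1*, *EIF2AK3* and *ATF6*) start the UPR, which raises chaperones and the ER-associated degradation (ERAD) machinery through the transcription factors XBP1, ATF6 and ATF4. In the cytosol the corresponding response is run by heat shock factor 1 (*HSF1*), which binds heat shock elements in the promoters of HSP70, HSP90 and their cochaperones. The CCT chaperonin is a ring complex of the cytosol, known for folding actin and tubulin.

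The response elements themselves are shown for 9 member genes, because they are the parts of the promoters through which the UPR and HSF1 are known to act. Promoter sequences from RefSeq (GRCh38.p14) matched 46 of the 50 members; *DERL1*, *CCT6A*, *PDIA3* and *HSF1* were not matched. The 250 bases before each start site were searched on both strands for the ER stress element ERSE (CCAAT and, 9 bases further, CCACG), for ERSE-II (ATTGG and, 1 base further, CCACG) and for 3 adjoining heat shock units, HSE (GAA, TTC and GAA with 2 bases between them). Each stretch is printed 5′ to 3′ on the strand of its gene with 5 flanking bases on either side, capitals mark the bases of the match, and the coordinates are those of the identical stretch in GRCh37. Each stretch lies upstream of the RefSeq start site whose window was matched.
HSPA5, ERSE: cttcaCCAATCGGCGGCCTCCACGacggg
XBP1, ERSE: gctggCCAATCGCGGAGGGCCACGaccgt
CRELD2, ERSE on the opposite strand: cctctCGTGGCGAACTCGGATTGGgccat
HERPUD1, ERSE-II: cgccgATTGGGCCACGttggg
SDF2L1, ERSE-II on the opposite strand: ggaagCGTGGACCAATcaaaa
HYOU1, ERSE-II on the opposite strand: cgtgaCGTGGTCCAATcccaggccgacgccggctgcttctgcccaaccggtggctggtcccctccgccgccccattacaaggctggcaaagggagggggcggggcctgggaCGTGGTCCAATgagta
HSP90AA1, HSE on the opposite strand: ggttcTTCCGGAAGGTTCgggag
HSP90AB1, HSE on the opposite strand: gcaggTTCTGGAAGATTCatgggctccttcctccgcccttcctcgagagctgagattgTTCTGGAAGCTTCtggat
HSPD1, HSE on both strands: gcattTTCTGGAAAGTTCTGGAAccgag

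The stretches lie at chr9:128003665-128003693 (*HSPA5*, minus strand), chr22:29196586-29196614 (*XBP1*, minus), chr22:50312197-50312225 (*CRELD2*, plus) and chr16:56965932-56965952 (*HERPUD1*, plus). The others lie at chr22:21996398-21996418 (*SDF2L1*, plus), chr11:118927980-118928106 (*HYOU1*, minus), chr14:102553452-102553474 (*HSP90AA1*, minus), chr6:44215510-44215585 (*HSP90AB1*, plus) and chr2:198364787-198364814 (*HSPD1*, minus). The stretches of *CRELD2*, *HSP90AA1*, *HSP90AB1* and *HSPD1* lie inside the longest annotated span of their gene, since other start sites are further upstream, and that of *HSPD1* overlaps an exon of its gene in the GRCh37 annotation whereas the other 8 overlap none. ERSE was found at 7 of 25 ER members with a promoter sequence (*HSPA5*, *HSP90B1*, *CALR*, *CANX*, *CRELD2*, *PDIA6* and *XBP1*) and at 0.0916% of 27305 genes. ERSE-II was found at 3 ER members (*HERPUD1*, *SDF2L1* and *HYOU1*) and at 0.0659% of genes. HSE was found at 3 of 12 cytosolic members (*HSPA8*, *HSP90AA1* and *HSP90AB1*), at *HSPD1* of the mitochondrial members and at 0.557% of genes. The *HSPD1* stretch also lies before the annotated start of its neighbour *HSPE1* (chr2:198364864, plus strand). The window of *HSPE1* itself held no match, so the RefSeq start used for it differs from this annotated start. Which of the 2 genes the match belongs to was not tested. The 2 matches at *HSPD1* overlap each other, and no member holds more than 1 kind of motif. No match means only that these letters are absent from the window, as they are for the 6 CCT members with a promoter sequence. The matches are a description of the sequence and were not tested as binding sites.

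Between 60827060 and 69739215 reads were counted per library. *ZKSCAN3* had 28.1, 23.4 and 19.8 CPM (reads scaled to the library total with TMM factors) in *ZK3*-WT libraries 1, 2 and 3, and the *ZK3*-KO libraries had 25.4, 24.9 and 13.6 CPM. Its log2 fold change was -0.16 (FDR 0.797 from edgeR's quasi-likelihood test), and since the edit targets the start codon, the read count does not check the knockout. *ZK3*-KO library 3 stood apart from the other *ZK3*-KO libraries, with correlations of log2 CPM of 0.963 and 0.950 against 0.985 between *ZK3*-KO libraries 1 and 2 and 0.983 to 0.989 among *ZK3*-WT libraries. Results that turn on it are therefore given with and without it. The 5 epithelial markers (*EPCAM*, *KRT8*, *KRT18*, *KRT19* and *CDH1*) were all expressed. Marker sums were scaled to the library total alone, without TMM factors. On that scale the epithelial sum was 3030 to 3800 CPM in *ZK3*-WT and 2710 to 4930 CPM in *ZK3*-KO libraries. Of 6 markers of blood, stromal and endothelial cells only *CD68* and *COL1A1* passed the filter, and the other 4 had at most 10 reads in a library. The sum of these 6, on the same scale without TMM factors, was 48.8 to 64.8 CPM in *ZK3*-WT libraries and 33.8 to 97.5 CPM in *ZK3*-KO libraries. Both marker sums were lowest in *ZK3*-KO library 2 and highest in *ZK3*-KO library 3. The part of this difference in the results was not tested.

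Across all 6 libraries, no member reached the FDR threshold of 0.05 with the quasi-likelihood test of edgeR, in which 2.05% of all tested genes passed. An unadjusted p-value under 0.05 was found for 14 members, all with higher counts in *ZK3*-KO cells (6 ER, 7 cytosolic and 1 CCT gene), where 18.4% of all genes had one in either direction. The groups did not overlap for 17 members with *ZK3*-KO cells higher (7 ER, 6 cytosolic and 4 CCT genes), beside 12.7% of all genes, and for 0 members with *ZK3*-KO cells lower, beside 13.8%. The median log2 fold change was 0.11 over the ER members, 0.48 over the cytosolic, 0.33 over the mitochondrial and 0.42 over the CCT members, and 0.02 over all genes. Without *ZK3*-KO library 3 these medians were -0.16, 0.70, 0.59 and 0.60, and -0.02 over all genes, and the ER median was also below 0 (-0.0572) in a linear model on log2(TPM + 1). Without *ZK3*-KO library 2 the medians, in the same order, were 0.28, 0.31, 0.12 and 0.29, and 0.02 over all genes. Libraries with the same number were also compared as pairs, in counts that were added after the values were seen. In all 3 pairs 24 members were higher in *ZK3*-KO cells (10 ER, 8 cytosolic, 1 mitochondrial and 5 CCT genes), beside 22.7% of all genes. Only 1 member (*CANX*) was lower in all 3, beside 24.7% of all genes. In bulk RNA, fewer cells of a type and less RNA per cell cannot be told apart, and this holds for every level given here.

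Members of different compartments were mostly highest in different *ZK3*-KO libraries. *ZK3*-KO library 3 had the highest CPM of the 6 libraries for 21 of 27 ER members, 1 cytosolic member (*HSF1*), 1 mitochondrial member (*HSPA9*) and 0 CCT members, beside 28.8% of all genes. *ZK3*-KO library 2 was highest for 2 ER members, 11 of 13 cytosolic members, 2 of 3 mitochondrial members and all 7 CCT members, beside 22.1% of all genes. As medians of the difference from the *ZK3*-WT mean on the log2(CPM + 0.5) scale, the ER members stood at -0.06, -0.23 and 0.58 in *ZK3*-KO libraries 1, 2 and 3. The cytosolic members stood at 0.56, 0.85 and 0.25 and the CCT members at 0.47, 0.74 and 0.08 on the same scale, while the median of all genes was between -0.03 and 0.01 in every library. In *ZK3*-WT libraries 1, 2 and 3 the medians were -0.09, -0.0047 and 0.08 (ER), 0.18, -0.09 and -0.10 (cytosolic) and 0.14, -0.11 and 0.01 (CCT). The ER median was thus highest in library 3 of both groups. The part of the replicate number in these values was not tested.

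**Figure D1:**
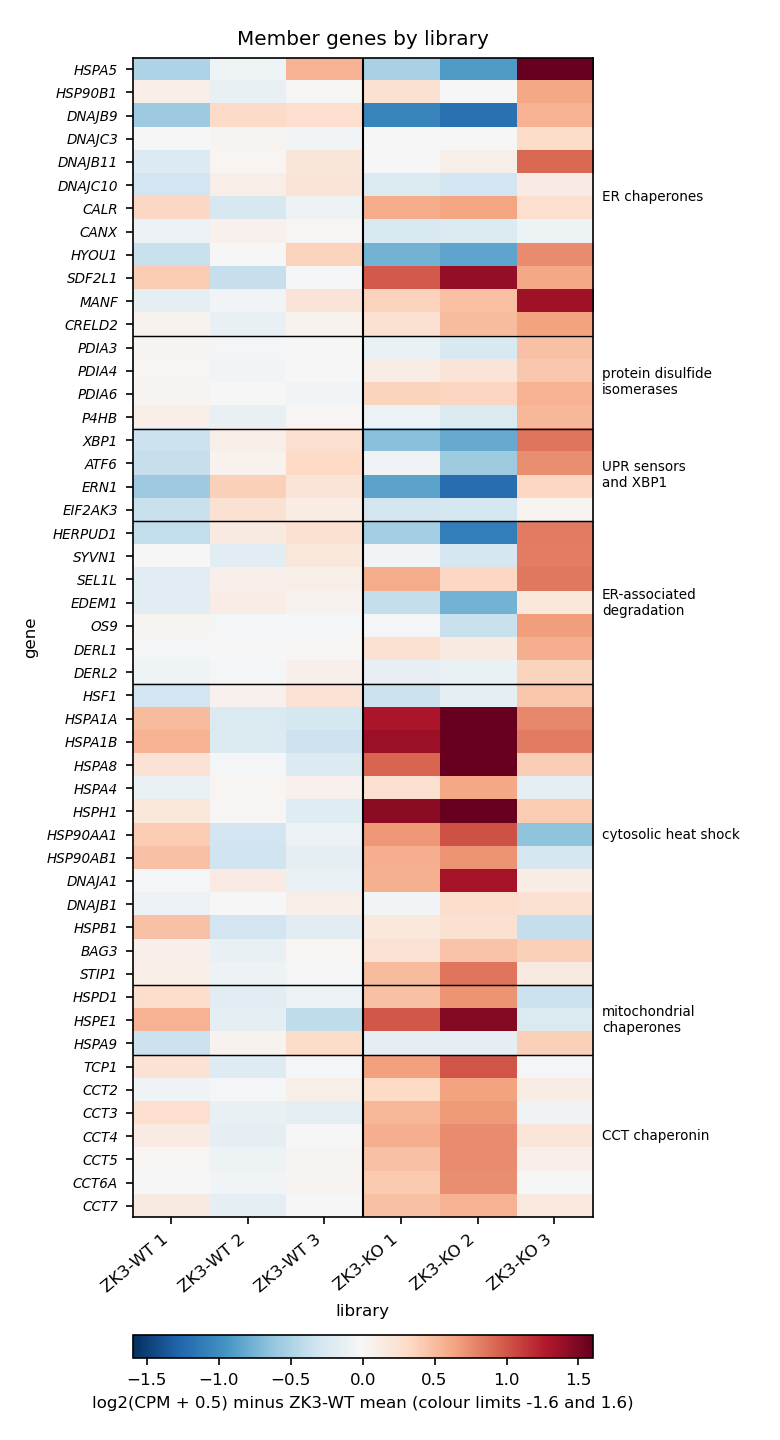
Heat map of the 50 genes (rows, grouped by role) in the 6 libraries (columns), where colour gives log2(CPM + 0.5) minus the mean of the 3 *ZK3*-WT libraries, with colours saturating at -1.6 and 1.6. *ZK3*-KO library 3 is the highest library for 21 of the 27 ER genes, and *ZK3*-KO library 2 for 11 of the 13 cytosolic and all 7 CCT genes.

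Leaving out *ZK3*-KO library 3 changed the calls. Without it, 18 members passed an FDR of 0.05 with higher and 5 with lower counts in *ZK3*-KO cells (edgeR's quasi-likelihood test, 3 against 2 libraries), where 7.41% of all genes passed as higher and 7.73% as lower. The higher genes were 2 ER members (*CALR* and *SDF2L1*), 7 cytosolic members, the mitochondrial pair *HSPD1* and *HSPE1* and all 7 CCT members. All 5 lower genes were ER members (*DNAJB9*, *HYOU1*, *XBP1*, *ERN1* and *HERPUD1*). Leaving out any of the other 5 libraries gave 0 calls among the members, but the share of all genes called in those fits was not counted. DESeq2 on all 6 libraries called 7 members, all higher in *ZK3*-KO cells (*SDF2L1*, *PDIA6*, *SEL1L*, *HSPA1A*, *HSPA1B*, *HSPA8* and *HSPH1*), with 8.20% of all genes called.

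**Figure D2:**
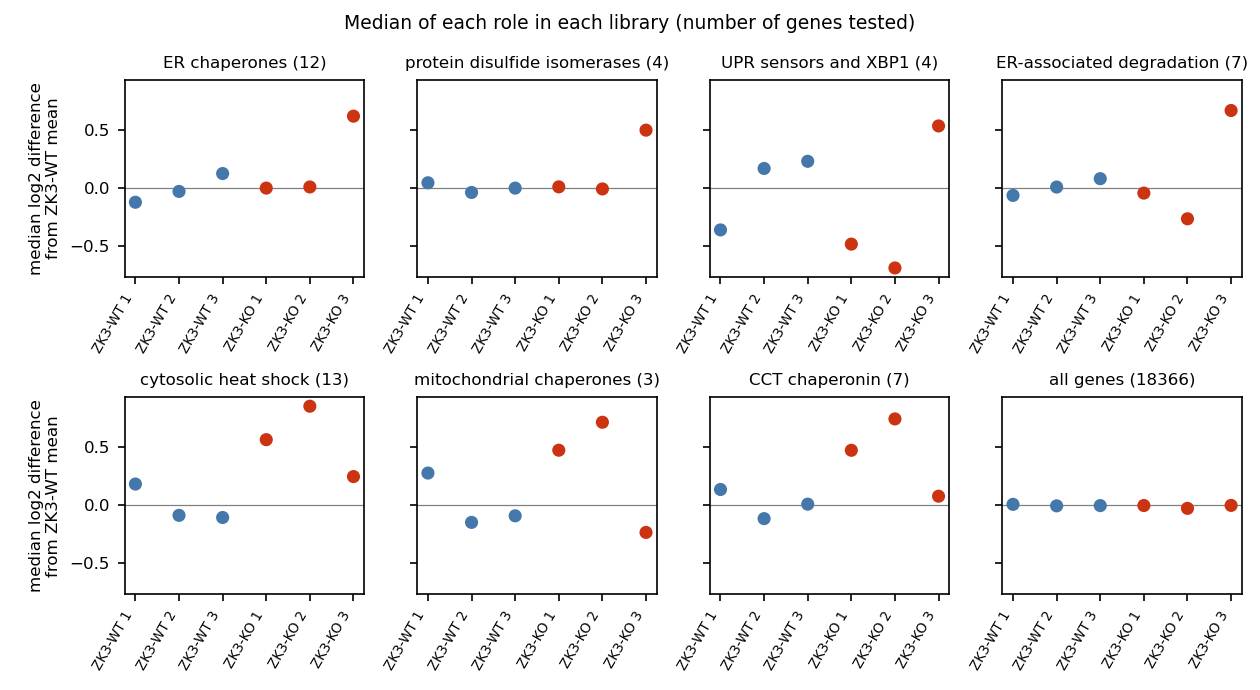
Median over the genes of each role, and over all 18366 tested genes, of the log2(CPM + 0.5) difference from the *ZK3*-WT mean (vertical axis) in each library (horizontal axis, *ZK3*-WT blue and *ZK3*-KO red). The 4 ER roles are highest in *ZK3*-KO library 3, and the cytosolic and CCT roles are highest in *ZK3*-KO library 2.

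Among the 12 ER chaperones, *HSPA5* (chr9:127997132-128003661), the gene of the central ER HSP70 chaperone BiP, varied most from library to library. Its CPM was 999, 1349 and 2076 in *ZK3*-WT libraries 1, 2 and 3 and 980, 754 and 4297 in *ZK3*-KO libraries 1, 2 and 3. *ZK3*-KO library 3 thus had 4.96 times the mean of the other *ZK3*-KO libraries, and those 2 lay below every *ZK3*-WT library. The log2 fold change of *HSPA5* was 0.45 (SE 0.65, FDR 0.762 by edgeR) with all libraries and -0.76 (SE 0.27, FDR 0.0931) without *ZK3*-KO library 3, and it was -0.06 in a linear model on log2(TPM + 1).

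*DNAJB9*, a J-domain cochaperone of BiP also called ERdj4, had the same lowest and highest libraries as *HSPA5*. It had 18.6, 34.8 and 34.0 CPM in *ZK3*-WT and 13.0, 11.9 and 41.6 CPM in *ZK3*-KO libraries 1, 2 and 3. The highest and the lowest library were both *ZK3*-KO libraries, so the groups overlapped. Its log2 fold change was -0.39 (SE 0.50, FDR 0.731 by edgeR) with all libraries, and -1.22 (SE 0.27, FDR 0.0202) without *ZK3*-KO library 3. *HYOU1*, a large HSP70-related chaperone of the ER, also passed only in that fit (-0.83, FDR 0.0280; -0.11 and FDR 0.923 with all libraries, edgeR). It was singled out, as were *MANF*, *CALR* and *CRELD2* among the chaperones, after the values were seen.

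*SDF2L1*, which encodes a stress-inducible partner of the J-domain protein ERdj3, had the largest fold change of the ER members. Its CPM was 20.0, 11.4 and 14.6 in *ZK3*-WT libraries 1, 2 and 3 and 30.0, 40.7 and 23.3 in *ZK3*-KO libraries 1, 2 and 3. Here the groups did not overlap, and the lowest *ZK3*-KO library was library 3. The means were 15.4 ± 4.34 and 31.3 ± 8.74 CPM (SD, n = 3 each), and the log2 fold change was 1.03 (SE 0.28, FDR 0.118 by edgeR). It was 1.21 (FDR 0.0129) without *ZK3*-KO library 3 and passed in DESeq2 (FDR 0.0140).

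*HSP90B1*, the gene of the ER HSP90 paralogue GRP94, had 1188, 1014 and 1118 CPM in *ZK3*-WT and 1313, 1109 and 1688 CPM in *ZK3*-KO libraries 1, 2 and 3. Its groups overlapped, with a log2 fold change of 0.31 (SE 0.20, FDR 0.455 by edgeR). *MANF*, an ER-resident protein known to be induced by the UPR, had 37.7 to 48.4 CPM in *ZK3*-WT and 54.1, 59.0 and 108 CPM in *ZK3*-KO libraries, without overlap (log2 fold change 0.81, FDR 0.195 by edgeR; 0.43 without *ZK3*-KO library 3). *CALR*, the gene of the lectin chaperone calreticulin, had a log2 fold change of 0.48 (FDR 0.269), which was 0.60 and passed without *ZK3*-KO library 3 (FDR 0.0429, edgeR). The lectin chaperone *CANX* (calnexin), the J-domain genes *DNAJC3*, *DNAJB11* and *DNAJC10*, and *CRELD2* had log2 fold changes of -0.19 to 0.48 with FDR values of 0.184 to 0.758 by edgeR, and only *CRELD2* of these had groups without overlap.

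The genes of the 4 protein disulfide isomerases were all highest in *ZK3*-KO library 3. *PDIA6* had the largest change, from 216, 208 and 203 CPM in *ZK3*-WT to 267, 266 and 306 CPM in *ZK3*-KO libraries 1, 2 and 3. The groups lay apart, at 209 ± 6.93 and 280 ± 22.9 CPM (SD, n = 3 each). The log2 fold change was 0.42 (SE 0.14, FDR 0.182 by edgeR, 0.0383 in DESeq2).

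*PDIA4*, also called ERp72, had 302, 285 and 296 CPM in *ZK3*-WT and 320, 341 and 396 CPM in *ZK3*-KO libraries 1, 2 and 3. The groups did not overlap, and the log2 fold change of 0.26 (SE 0.15) had an FDR of 0.406 by edgeR. *PDIA3* and *P4HB* had log2 fold changes of 0.07 and 0.11, which were -0.09 and -0.06 in the linear model on log2(TPM + 1) and -0.17 and -0.16 without *ZK3*-KO library 3. *P4HB*, which encodes both a disulfide isomerase and a subunit of prolyl 4-hydroxylase, was among the most abundant members, at 1185 ± 67.6 TPM (a level scaled by transcript length and depth; SD, n = 3) in *ZK3*-WT cells.

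The 3 UPR sensors and *XBP1*, the target of IRE1's splicing activity, split the *ZK3*-KO libraries. *XBP1* (chr22:29190543-29196585) had 75.2, 103 and 114 CPM in *ZK3*-WT and 60.2, 54.7 and 174 CPM in *ZK3*-KO libraries 1, 2 and 3. *ZK3*-KO libraries 1 and 2 were the lowest of the 6 libraries and library 3 the highest, 3.02 times the mean of those 2. The log2 fold change was -0.02 (SE 0.44, FDR 0.989 by edgeR) with all libraries and -0.76 (SE 0.19, FDR 0.0295) without *ZK3*-KO library 3. Counts per gene do not separate spliced from unspliced *XBP1* mRNA.

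*ERN1*, the gene of IRE1, had 48.0, 94.2 and 83.8 CPM in *ZK3*-WT and 39.7, 30.9 and 91.0 CPM in *ZK3*-KO libraries 1, 2 and 3. The low libraries were *ZK3*-KO libraries 1 and 2 and, next, *ZK3*-WT library 1. Its log2 fold change, the largest of this role, was -0.49 (SE 0.43, FDR 0.598 by edgeR), and -1.09 (SE 0.27, FDR 0.0302) without *ZK3*-KO library 3. *ATF6*, a sensor that is itself cleaved into a transcription factor, had 79.0, 106 and 127 CPM in *ZK3*-WT and 98.1, 68.7 and 171 CPM in *ZK3*-KO libraries 1, 2 and 3, with a log2 fold change of 0.11 (FDR 0.893) that was -0.32 without *ZK3*-KO library 3 and -0.09 in the linear model on TPM. For *EIF2AK3*, the gene of PERK, the log2 fold change was -0.20 (SE 0.20, FDR 0.655 by edgeR), and its *ZK3*-KO libraries (23.2 to 29.4 CPM) lay within the range of its *ZK3*-WT libraries (22.3 to 33.9 CPM).

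ERAD moves misfolded proteins out of the ER for degradation, and all 7 of its members were highest in *ZK3*-KO library 3. *HERPUD1*, which encodes a stress-induced ERAD component, had 75.9, 111 and 118 CPM in *ZK3*-WT and 68.5, 46.0 and 178 CPM in *ZK3*-KO libraries 1, 2 and 3. *ZK3*-KO libraries 1 and 2 were again the 2 lowest libraries. The log2 fold change was -0.06 (SE 0.47, FDR 0.962 by edgeR), and -0.83 (SE 0.23, FDR 0.0446) without *ZK3*-KO library 3.

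*SEL1L*, the adaptor of the ubiquitin ligase HRD1, had the largest fold change of the ERAD members. Its CPM was 95.3, 115 and 116 in *ZK3*-WT and 163, 136 and 194 in *ZK3*-KO libraries 1, 2 and 3, so the groups did not overlap. The log2 fold change was 0.60 (SE 0.18, FDR 0.146 by edgeR, 0.0446 in DESeq2). *SEL1L* lies at chr14:81937891-82000197, and the median log2 fold change of the 504 tested genes placed on chromosome 14 was 0.51, beside a range of -0.39 to 0.14 over the other chromosomes. The part of that shift in the value of *SEL1L* was not tested. *SYVN1* (the ligase HRD1), the lectins *EDEM1* and *OS9*, and the derlins *DERL1* and *DERL2* had log2 fold changes of -0.28 to 0.34 with FDR values of 0.317 to 0.891 by edgeR, and of these only *DERL1* had groups without overlap.

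**Figure D3:**
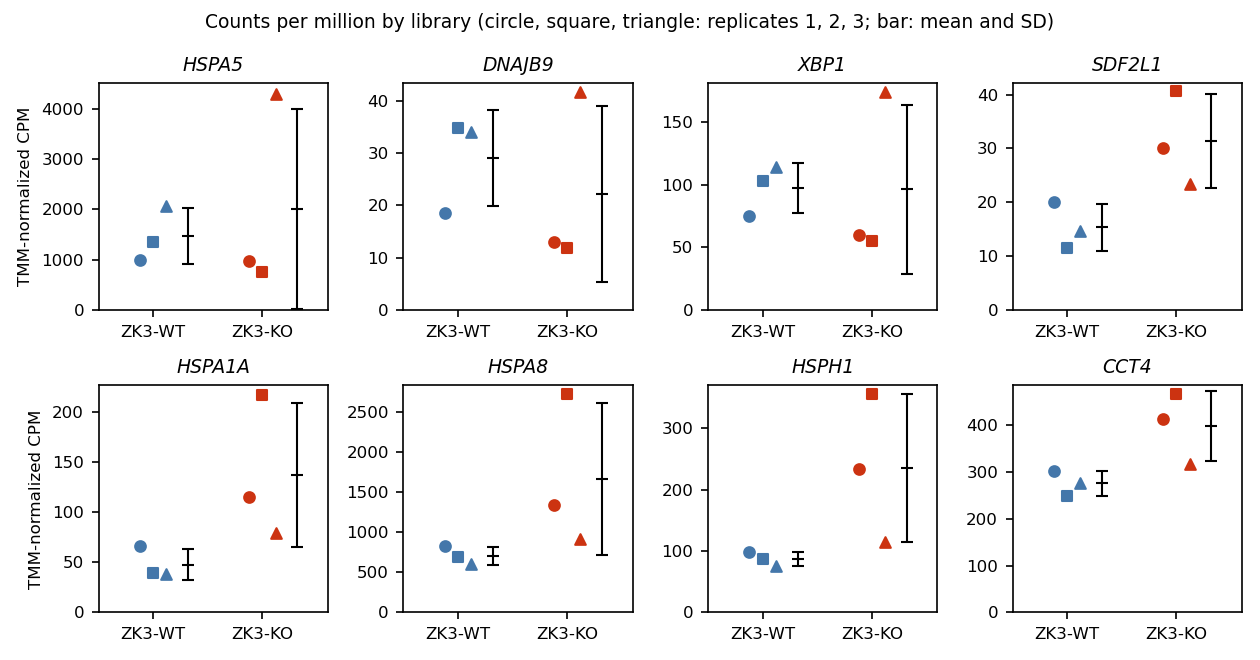
TMM-normalized CPM (vertical axes, starting at 0) of 8 member genes in *ZK3*-WT (blue) and *ZK3*-KO libraries (red), where circles, squares and triangles are libraries 1, 2 and 3 and the bars give the mean and SD (n = 3). *HSPA5*, *DNAJB9* and *XBP1* are highest in *ZK3*-KO library 3, at 4297, 41.6 and 174 CPM, whereas *SDF2L1*, *HSPA1A*, *HSPA8*, *HSPH1* and *CCT4* are highest in *ZK3*-KO library 2, at 40.7, 218, 2723, 356 and 465 CPM.

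In the cytosol, the inducible HSP70 genes *HSPA1A* and *HSPA1B* had the largest fold changes of all 50 genes. *HSPA1A* (chr6:31783320-31785723) had 65.9, 39.5 and 38.0 CPM in *ZK3*-WT and 115, 218 and 79.0 CPM in *ZK3*-KO libraries 1, 2 and 3. *HSPA1B* (chr6:31795515-31798031) had 114, 66.7 and 61.3 CPM in *ZK3*-WT and 201, 372 and 138 CPM in the *ZK3*-KO libraries. Every *ZK3*-KO library was above every *ZK3*-WT library for both, and *ZK3*-KO library 3 was the lowest *ZK3*-KO library. The log2 fold changes were 1.52 (SE 0.40, FDR 0.110) and 1.56 (SE 0.40, FDR 0.108) by edgeR, the latter the lowest FDR of the members. Without *ZK3*-KO library 3 they were 1.81 and 1.84 and both passed (FDR 0.00694 and 0.00717), as they did in DESeq2.

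The 2 genes cannot be counted separately with certainty. In the transcript annotation their longest open reading frames, of 1926 bases each, differ at 4 bases (99.79% identity), and the CPM of *HSPA1B* was between 1.61 and 1.75 times that of *HSPA1A* in every library. How reads that fit both genes were assigned is not given in the sources used here, so they are not independent observations of inducible HSP70. Both are counted in every number of members called, not overlapping or highest in a library, and counting the pair once would lower each of those numbers that includes them by 1.

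*HSPA8*, the gene of the constitutive cytosolic chaperone HSC70, had 824, 692 and 604 CPM in *ZK3*-WT and 1340, 2723 and 919 CPM in *ZK3*-KO libraries 1, 2 and 3. The groups did not overlap, and *ZK3*-KO library 2 was far above the rest. The means of 706 ± 111 and 1660 ± 944 CPM (SD, n = 3 each) gave a log2 fold change of 1.23 (SE 0.39, FDR 0.160 by edgeR), which was 1.53 (FDR 0.00795) without *ZK3*-KO library 3. Without *ZK3*-KO library 2 the log2 fold change was 0.68 (FDR 0.255 by edgeR). *HSPH1*, an HSP110 that acts as a nucleotide exchange factor for HSP70 and was singled out after its values were seen, had 97.7, 87.1 and 74.9 CPM in *ZK3*-WT and 234, 356 and 114 CPM in *ZK3*-KO libraries 1, 2 and 3. Its log2 fold change was 1.44 (SE 0.38, FDR 0.110 by edgeR), and without *ZK3*-KO library 3 it was 1.78 with the lowest FDR of the members in that fit (0.00119).

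The genes of both cytosolic HSP90 proteins were the most abundant members per length, at 2047 ± 589 TPM for *HSP90AB1* and 1322 ± 333 TPM for *HSP90AA1* in *ZK3*-WT cells (SD, n = 3 each). *HSP90AA1*, the inducible form, had 2646, 1606 and 1863 CPM in *ZK3*-WT and 3213, 4037 and 1274 CPM in *ZK3*-KO libraries 1, 2 and 3, with *ZK3*-KO library 3 the lowest library of all. Its log2 fold change was 0.48 (SE 0.41, FDR 0.583 by edgeR), and 0.84 (FDR 0.0243) without that library. *HSP90AA1* also lies on chromosome 14, whose median is given above beside *SEL1L*. *HSP90AB1*, the constitutive form, had 3342, 1940 and 2169 CPM in *ZK3*-WT and 3600, 3957 and 2004 CPM in *ZK3*-KO libraries 1, 2 and 3, with overlapping groups and a log2 fold change of 0.36 (FDR 0.595 by edgeR; 0.61 and FDR 0.0735 without *ZK3*-KO library 3).

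Their regulator *HSF1* had 79.2, 102 and 115 CPM in *ZK3*-WT and 76.9, 87.7 and 133 CPM in *ZK3*-KO libraries 1, 2 and 3. The groups overlapped, and the log2 fold change was 0.0020 (SE 0.24, FDR 0.998 by edgeR), with the sign depending on the scaling. Its mRNA level does not report on the activity of the protein, which is controlled after translation. *DNAJB1*, an HSP40 cochaperone, had 151, 161 and 171 CPM in *ZK3*-WT and 156, 195 and 191 CPM in *ZK3*-KO libraries 1, 2 and 3, a log2 fold change of 0.17 (FDR 0.607 by edgeR). The HSP40 gene *DNAJA1* (0.76) and *STIP1* (0.53), which encodes the adaptor HOP between HSP70 and HSP90, passed without *ZK3*-KO library 3 (1.00 and 0.70, FDR 0.0164 and 0.0152) and not with all libraries (FDR 0.237 and 0.228, edgeR). *BAG3*, an HSP70 cochaperone, and *HSPA4*, another HSP110, had log2 fold changes of 0.36 and 0.28, and that of the small heat shock gene *HSPB1* was -0.0056, with FDR values of 0.226, 0.534 and 0.994.

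**Figure D4:**
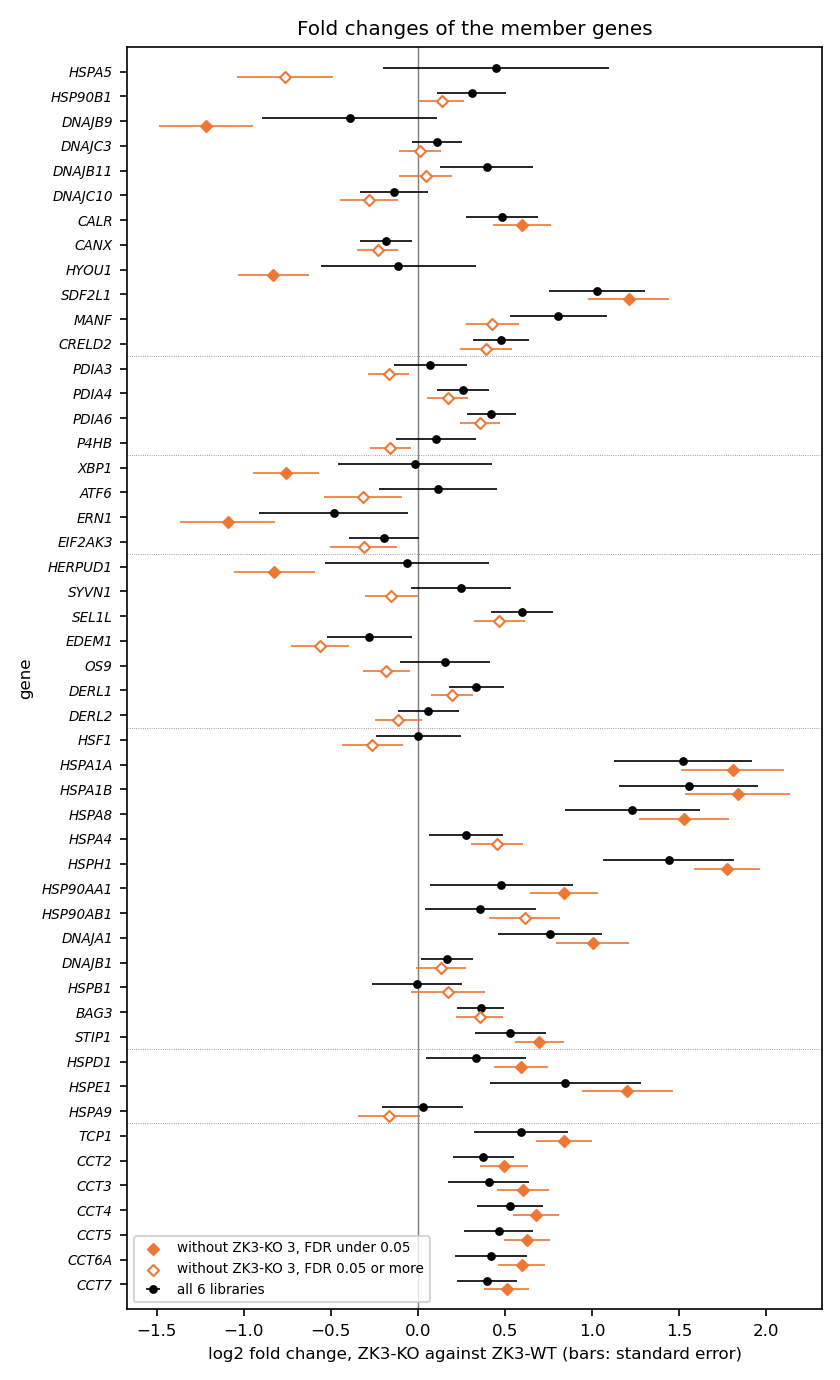
Log2 fold change of *ZK3*-KO against *ZK3*-WT cells (horizontal axis, bars give the standard error) for the 50 genes with all 6 libraries (black) and without *ZK3*-KO library 3 (orange, filled where the FDR was under 0.05). Without that library 18 genes passed as higher, among them all 7 CCT genes, and 5 ER genes passed as lower, whereas with all libraries none passed.

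The mitochondrial chaperonin pair HSP60 and HSP10 is encoded by the neighbouring genes *HSPD1* (chr2:198351308-198381461) and *HSPE1* (chr2:198364864-198368173). *HSPD1* had 1120, 812 and 868 CPM in *ZK3*-WT and 1283, 1516 and 726 CPM in *ZK3*-KO libraries 1, 2 and 3. *HSPE1* had 96.6, 59.0 and 49.1 CPM in *ZK3*-WT and 131, 182 and 55.6 CPM in the corresponding *ZK3*-KO libraries. For both genes *ZK3*-KO libraries 1 and 2 lay above all *ZK3*-WT libraries and library 3 did not, although *HSPE1* was higher in *ZK3*-KO cells in all 3 same-numbered pairs. The log2 fold changes were 0.33 (SE 0.29, FDR 0.585) and 0.85 (SE 0.43, FDR 0.353), and 0.59 (FDR 0.0360) and 1.20 (FDR 0.0194) without *ZK3*-KO library 3, all by edgeR. The value of *HSPE1* is uncertain, since the row of the readthrough transcript *HSPE1-MOB4* held 2.37% to 31.3% as many reads, the highest share in *ZK3*-WT library 3. *HSPA9*, the mitochondrial HSP70 (mortalin), had a log2 fold change of 0.03 (SE 0.23, FDR 0.966 by edgeR), which was -0.17 without *ZK3*-KO library 3 and -0.10 in the linear model on TPM.

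The 7 CCT genes, which lie on 6 chromosomes, encode subunits of 1 complex and had similar values. Their log2 fold changes were between 0.38 and 0.59 with all libraries. Their median was above 0 under every alternative tried, as were the cytosolic and mitochondrial medians. *TCP1* (chr6:160199530-160210735), which encodes CCT1 and had the largest fold change, had 333, 246 and 278 CPM in *ZK3*-WT and 448, 567 and 276 CPM in *ZK3*-KO libraries 1, 2 and 3. *CCT2* (chr12:69979206-69995350) had 262, 266 and 289 CPM in *ZK3*-WT and 338, 426 and 296 CPM in *ZK3*-KO libraries 1, 2 and 3. In both, *ZK3*-KO library 3 was close to the *ZK3*-WT libraries, and *ZK3*-KO libraries 1 and 2 were above them.

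The log2 fold change of *TCP1* was 0.59 (SE 0.27, FDR 0.303) and that of *CCT2* 0.38 (SE 0.18, FDR 0.313) by edgeR, and without *ZK3*-KO library 3 they were 0.84 (FDR 0.0129) and 0.49 (FDR 0.0452). *CCT2*, *CCT4*, *CCT5* and *CCT7* had groups without overlap. The lowest FDR with all libraries was that of *CCT4* (0.204, log2 fold change 0.53, SE 0.19), and without *ZK3*-KO library 3 all 7 passed, with FDR values of 0.0129 to 0.0452. The mean TPM in *ZK3*-WT cells was between 225 (*CCT5*) and 553 (*CCT3*). *CCT8*, the gene of a further subunit that was not among the 50, had 434, 359 and 382 CPM in *ZK3*-WT and 422, 447 and 288 CPM in *ZK3*-KO libraries 1, 2 and 3, with a log2 fold change of -0.02 (SE 0.20, FDR 0.970 by edgeR) and 0.16 (FDR 0.438) without *ZK3*-KO library 3. It lies on chromosome 21, where the median over 141 tested genes was -0.39, and the part of this in its value was not tested.

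A further 97 genes of the same pathways, of which 94 passed the filter on low counts, were counted in 6 lists. None of them passed an FDR of 0.05 with all libraries, 15 had an unadjusted p-value under 0.05 (all higher in *ZK3*-KO cells, beside 18.4% of all genes in either direction), and DESeq2 called 5 (8.20% of all genes). Without *ZK3*-KO library 3, 12 passed as higher and 5 as lower, beside 7.41% and 7.73% of all genes. The PERK and ATF4 arm of the UPR (7 genes) spread most within the *ZK3*-KO group. As medians of the log2 difference from the *ZK3*-WT mean it stood at -0.71, 0.13 and 0.55 in *ZK3*-WT and -0.94, -2.39 and 1.31 in *ZK3*-KO libraries 1, 2 and 3, and all 7 genes were highest in *ZK3*-KO library 3. The list was named from general knowledge, and whether PERK or another signal lies behind this spread was not tested. *DDIT3*, which encodes the proapoptotic transcription factor CHOP, had 46.4, 106 and 124 CPM in *ZK3*-WT and 32.3, 6.33 and 237 CPM in *ZK3*-KO libraries 1, 2 and 3.

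Both the lowest and the highest library of *DDIT3* were thus *ZK3*-KO libraries, with a log2 fold change of -0.0048 (SE 1.06, FDR 0.998 by edgeR) that became -2.26 (FDR 0.0445) without *ZK3*-KO library 3. *ATF4*, the transcription factor translated when PERK is active, had 594, 653 and 736 CPM in *ZK3*-WT and 575, 403 and 1063 CPM in *ZK3*-KO libraries 1, 2 and 3 (log2 fold change 0.04, FDR 0.964). *TRIB3*, a target of ATF4 and CHOP and the gene with the largest fold change in that list, had a log2 fold change of -0.39 (FDR 0.814), and -1.62 (FDR 0.0385) without *ZK3*-KO library 3. The genes with the largest fold change in the other lists were *ERO1A* (an ER oxidase that recharges disulfide isomerases; 0.74, FDR 0.0849), *VCP* (the ERAD ATPase p97; 0.63, FDR 0.146), *HSPA2* (an HSP70 paralogue; 1.48, FDR 0.144), *CLPP* (a mitochondrial protease; 0.44, FDR 0.163) and *PFDN1* (a prefoldin subunit; 0.61, FDR 0.196), all by edgeR. *ERO1A* and *HSPA2* lie on chromosome 14, whose median is given above beside *SEL1L*, and *HSPA2* had only 1.06 to 6.35 CPM. *AHSA1* (1.06, FDR 0.0812 by edgeR), singled out after its values were seen, lies there too. *ERO1A*, *HSPA2* and *AHSA1* were among the 5 genes of these lists that DESeq2 called. The part of chromosome 14 in these calls was not tested.

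ER members with and without a motif match were both mostly highest in *ZK3*-KO library 3. Of the 10 ER members with ERSE or ERSE-II, 7 were highest in *ZK3*-KO library 3, as were 14 of the other 17, which include 2 without a promoter sequence. In *ZK3*-KO library 3 the median log2 difference from the *ZK3*-WT mean was 0.63 for those with a match and 0.53 for the others. *SDF2L1* and *HERPUD1*, which both hold ERSE-II, were highest in *ZK3*-KO libraries 2 and 3, respectively. Rows for pseudogenes of the members held at most 1.93% as many reads as their parent gene (*PDIA3*), and 1.15% to 1.52% for the 15 pseudogene rows of *HSPD1*.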

How the data were processed

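The authors sequenced poly(A) RNA of 3 *ZK3*-WT and 3 *ZK3*-KO cultures (stranded, paired-end libraries). Per the labels and methods, reads were aligned to hg19 with Bowtie2 2.2.5 in Partek Flow. The methods name an Ensembl annotation and an ANOVA on TPM, while the deposited table lists NCBI Gene identifiers. Strand and multimapping settings are not given in the sources used here. The deposited values are unnormalized read counts per gene, and the FPKM values deposited by the authors were not used. TPM values deposited by the authors, scaled by transcript length, gave levels between genes and 1 alternative.

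Counts were filtered with filterByExpr, normalized with TMM factors and tested on genotype with edgeR 4.0.16 (quasi-likelihood test, R 4.3.3, limma 3.58.1) across all 18366 remaining genes, with Benjamini-Hochberg adjustment and a threshold of 0.05. A standard error (SE) is the log2 fold change divided by the square root of F. Per-library differences use log2(CPM + 0.5). Scripts were tested on simulated data. The p-values set the difference between the groups against the spread between cultures within them, all from 1 parental line. Knockout goes together with puromycin selection and single-cell isolation, so their parts in a difference cannot be told apart. Replicates differed by more than sampling noise.

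The 13 alternatives were relative log expression factors, library totals alone, DESeq2 1.42.0, a linear model on log2(TPM + 1), no filter beyond 1 read, a minimum of 10 reads in each of the libraries, the replicate number as a block and each library left out in turn. Deviations from the group mean correlated across genes at 0.294, 0.112 and 0.449 between libraries sharing a replicate number, and at -0.343 to 0.209 for different numbers. By a limit of 0.1 the numbers were taken to pair the libraries in the block and in the counts of same-numbered pairs. The fit with all libraries, on which the fold changes and FDR values in the text rest unless another fit is named, has no pairing. However, *ZK3*-KO library 2 correlated more with *ZK3*-WT library 1 (0.209) than with *ZK3*-WT library 2 (0.112). The sources used here do not say what the numbers mark.

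The members and lists were chosen with earlier results of these data known. Values in every library were given for the gene with the largest fold change in each of 7 roles and for 19 genes named in the rule, and for *CCT8*, *ATF4* and *DDIT3* of the other lists, of which the gene with the largest fold change is also named. Other genes singled out are marked as such. Positions are from a GRCh37 annotation matched by symbol (87% of tested genes), motifs were searched with Python 3.11.15, and no sequence of a protein was used.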

Additional observations from a re-analysis of the deposited data

How the results depend on the processing

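With the replicate number as a block, which takes libraries of the same number as pairs, 0 members passed, as without the pairing, so no call of a member changed. The block gave median log2 fold changes of 0.07 (ER), 0.36 (cytosolic), 0.28 (mitochondrial) and 0.39 (CCT), and -0.01 over all genes. That of *HSPA5* was 0.06 with the block and 0.45 without it. Counts of members past an FDR of 0.05 depended on the tool and on 1 library. DESeq2 called 7 members (3 ER and 4 cytosolic) and 5 other pathway genes, all higher in *ZK3*-KO cells, with 8.20% of all genes called. The linear model on log2(TPM + 1) called 1 other pathway gene, which was lower in *ZK3*-KO cells. The share of all genes called was counted only for edgeR with all libraries, edgeR without *ZK3*-KO replicate 3 and DESeq2. Leaving out each library in turn gave 0 to 23 members (0 to 7 ER, 0 to 7 cytosolic, 0 to 2 mitochondrial and 0 to 7 CCT) and 0 to 17 other pathway genes, where each highest value is that without *ZK3*-KO replicate 3. The median of the cytosolic members was 0.23 in the linear model, and that of the ER members, 0.11 with all libraries, was -0.0572 in the linear model and -0.16 without *ZK3*-KO replicate 3, so its sign was not kept. Both ER values lay within the SD between replicates (0.31) of the value with all libraries. That SD includes the spread due to *ZK3*-KO replicate 3, so it cannot judge the fit without that replicate. *HYOU1*, *XBP1* and *HERPUD1*, which passed as lower without *ZK3*-KO replicate 3, had log2 fold changes of 0.16, 0.26 and 0.28 without *ZK3*-KO replicate 2. No member passed the threshold with all libraries, so sign changes there concern no called member. The sign of the log2 fold change was kept by 36 of the 50 members under all 13 alternatives, and 14 members changed sign. In the linear model these were *HSPA5* (-0.0637), *DNAJC3* (-0.0182), *PDIA3* (-0.0865), *P4HB* (-0.0572), *ATF6* (-0.0873), *OS9* (-0.0305), *DERL2* (-0.0657), *HSF1* (-0.16) and *HSPA9* (-0.10), and with library totals alone *PDIA3* (-0.0245), *DERL2* (-0.0333), *HSF1* (-0.10) and *HSPA9* (-0.0651). The median of all genes was 0.02 with TMM factors, -0.07 with library totals and -0.08 in the linear model. *HSF1* was -0.0038 with all genes with a read, -0.0092 with at least 10 reads in every library and -0.0210 with the block, and *HSPB1* was 0.0020 with relative log expression factors, 0.0020 in DESeq2 and 0.0082 with the block. Over the fits without 1 library, the range was -0.76 to 0.84 for *HSPA5*, -0.83 to 0.16 for *HYOU1*, -0.17 to 0.21 for *PDIA3*, -0.16 to 0.25 for *P4HB*, -0.76 to 0.26 for *XBP1*, -0.32 to 0.37 for *ATF6* and -0.83 to 0.28 for *HERPUD1*. It was -0.15 to 0.45 for *SYVN1*, -0.18 to 0.36 for *OS9*, -0.11 to 0.15 for *DERL2*, -0.26 to 0.16 for *HSF1*, -0.15 to 0.27 for *HSPB1* and -0.17 to 0.18 for *HSPA9*. The cause of these differences was not tested. Every library had at least 60827060 reads, and the part of depth in the spread of these values was not tested.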
